A study of Homo sapiens with 4 samples.

Results

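Lysosome and autophagy genes were followed in 2 human blood cancer lines exposed to atovaquone, a hydroxynaphthoquinone antimalarial that inhibits the cytochrome bc1 complex of mitochondria. The set was chosen by gene symbol. Every probe set that the platform annotation assigns to 1 of 43 listed genes and to no other gene was taken. This gave 45 probe sets for 43 of the 18417 genes on the array. Of the 43, 22 encode lysosomal proteins, 18 act in autophagy and 3 are transcription factors of the MiT/TFE family. The arrays held RNA of U266, a multiple myeloma line, given 15 µM atovaquone for 2 h or its DMSO vehicle for 2 h, and of K562, a chronic myeloid leukaemia line, given 20 µM atovaquone for 5 h or its DMSO vehicle for 5 h. Each of the 4 groups was 1 array, so nothing here has a replicate, no test was possible, and every ratio describes a pair of arrays. Dose and time both differed between the lines, so values of the lines stand side by side and their difference was not tested.

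Lysosomes are acidic organelles in which hydrolases break down material delivered by endocytosis and autophagy. In autophagy the ULK1 kinase complex and the BECN1 lipid kinase complex start a membrane sac, conjugation enzymes attach ATG8 proteins such as LC3B to it, and receptors such as p62 (SQSTM1) bring in cargo before the sac fuses with a lysosome. TFEB, TFE3 and MITF, which mTORC1 holds in the cytoplasm when nutrients are ample, switch on many of these genes through the CLEAR element, an E-box in their promoters. Plasma cell tumours such as myeloma secrete much protein and are known to rely on protein disposal routes, autophagy among them.

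The values are the deposited intensities on a linear scale. A floor was set on each array at the 40th percentile of annotated probe sets, at 324 and 331 for U266 with atovaquone and vehicle and at 306 and 305 for K562 with atovaquone and vehicle. A gene counts as measured where neither array of a pair puts it under the floor, and its log2 ratio is given after subtracting the median ratio of the array pair. Disagreement between probe sets of the same gene served as a rough scale. In genes with 2 probe sets, the difference between their ratios corresponds to an SD for 1 probe set. It was 0.11 log2 units in U266 (293 genes) and 0.12 in K562 (314 genes). That SD leaves out the spread between cultures and any error that both probe sets share on an array, so it is not the full error of a ratio. The lines carried markers of their labelled type. Of 10 plasma cell markers, 5 were measured at least 2-fold higher in U266 and another 4 were below the floor in K562, the exception being CD38 at -0.73, and the erythroid genes HBZ and HBE1 had log2 differences of -4.16 and -3.30 (U266 minus K562 vehicle). Of 8 erythroid genes with a value, 4 were below the floor in U266. KLF1 still had 1180 there, at -1.13, and EPOR stood at -0.75. Genes of other types were not all dim, since KRT8, KRT18 and EPCAM had 3588, 3255 and 1975 in K562 vehicle. Of 8 monocyte and macrophage markers with a value, 0 were measured in U266 and 3 in K562, where CD14, CD68 and LYZ had ratios between -0.02 and 0.18.

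Promoters are shown first for the member that differed most with atovaquone and for a pair of members that carry the CLEAR element. Windows of 300 bases, 250 before the start site and 50 from it on, came from RefSeq on GRCh38.p14, and 35 of the 43 members matched. The others, ARSA, ASAH1, CTSB, HEXA, LAMP2, NAGLU, PSAP and UVRAG, had no entry in the table. The windows below are from GLA (chrX:101407876-101408175, minus strand), GAA (chr17:80101331-80101630, plus strand) and LAMP1 (chr13:113296989-113297288, plus strand), and capitals mark each TCACGTGA, the palindromic core of the CLEAR element.
GLA: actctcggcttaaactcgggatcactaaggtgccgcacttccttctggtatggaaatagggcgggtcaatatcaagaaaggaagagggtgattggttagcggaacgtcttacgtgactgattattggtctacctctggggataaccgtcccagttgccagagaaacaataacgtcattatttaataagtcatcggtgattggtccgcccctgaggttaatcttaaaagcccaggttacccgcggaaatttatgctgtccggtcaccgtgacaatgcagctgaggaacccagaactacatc
GAA: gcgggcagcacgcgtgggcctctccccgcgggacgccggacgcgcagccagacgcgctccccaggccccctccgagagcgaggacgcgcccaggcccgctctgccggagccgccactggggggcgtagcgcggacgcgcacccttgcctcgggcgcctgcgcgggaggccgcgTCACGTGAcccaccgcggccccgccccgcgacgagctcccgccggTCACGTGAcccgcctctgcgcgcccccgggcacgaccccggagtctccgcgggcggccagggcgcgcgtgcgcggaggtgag
LAMP1: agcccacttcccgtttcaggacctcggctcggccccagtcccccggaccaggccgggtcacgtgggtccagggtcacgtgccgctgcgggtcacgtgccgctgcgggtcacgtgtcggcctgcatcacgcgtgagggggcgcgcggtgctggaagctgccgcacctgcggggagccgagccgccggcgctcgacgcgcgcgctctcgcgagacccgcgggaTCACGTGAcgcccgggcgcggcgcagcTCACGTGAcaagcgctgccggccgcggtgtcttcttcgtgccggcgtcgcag

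The CLEAR core was present in the windows of 5 members, 4 of them lysosomal (CTSA, GAA, LAMP1 and MCOLN1) and 1 of autophagy (ATG3). Counted by window it was in 5 of 52 member windows, since some members have several start sites, against 0.98% of all 35116 windows in the table. In GAA the 2 matches began 77 and 32 bases before the start site, and in LAMP1 29 and 2 bases before it. The element lay 42 and 15 bases before the start in MCOLN1, 26 bases before it in CTSA and 4 bases after it in ATG3. No matches to different elements overlapped in these windows, and both strands were searched for each. The heat shock element, searched as GAANNTTC or TTCNNGAA, was found in ATG3 and GABARAPL2 and in 13.5% of all windows. The element bound by ATF4 with C/EBP partners, searched as TGATGNAA, was in 0 member windows and in 3.62% of all windows. The GLA window held none of the 3 elements. GLA lies on chromosome X at 101397803 to 101407925, head to head with HNRNPH2, an RNA-binding protein gene that begins after 296 bases on the other strand, and 204 bases of the windows of these 2 genes are the same DNA. The CLEAR core occurred 2 times in the HNRNPH2 window, 43 and 10 bases before that gene's start and outside the shared bases. Both cores lie in the 296 bases between the 2 genes, beyond the upstream edge of the GLA window. GLA was thus counted as lacking the core because its window reaches 250 bases before the start.

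In U266, 1 member stood out with atovaquone and the others differed little. GLA, which encodes the alpha-galactosidase that removes terminal galactose from glycolipids and is deficient in Fabry disease, had an intensity of 3181 with atovaquone, against 1144 with vehicle. Both values were far above the floor, and the ratio was 2.80-fold, or 1.49 on the log2 scale. It ranked 19th from the top of 10731 measured genes. In K562 the same probe set gave 902 with atovaquone, against 1126 with vehicle, a log2 ratio of -0.32. The vehicle arrays of U266 and K562 thus had close GLA intensities of 1144 and 1126, and the treated U266 array alone was high. The probe set listed for both HNRNPH2 and its readthrough with RPL36A, across the head-to-head promoter from GLA, gave 1637 with atovaquone, against 1483 with vehicle, in U266, a log2 ratio of 0.15, and in K562 its ratio was 0.13. In bulk RNA a change in RNA per cell and a change in the share of cells that carry it cannot be told apart.

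Of 41 members measured in U266, GLA was the 1 at least 1.5-fold higher with atovaquone, against 0.857% of all measured genes, and 0 were at least 1.5-fold lower, against 0.0932% of all genes. At the smaller size of 1.2-fold, 3 members were higher and 1 was lower, beside 4.06% and 3.08% of all genes. The member median was 0.04, against a median of -0.00012 for all genes, and 26 of 41 ratios lay above 0, against 50% of all genes. In absolute size, 27 of the 41 ratios were below the SD of 1 probe set, and 6 were beyond 2 SD, or 0.22, namely GLA, CD63, NBR1, GABARAPL1, ATG9A and UVRAG. The share of all genes beyond these sizes was not counted, so these counts do not set the members apart from genes at large.

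In K562 no member reached 1.5-fold in either direction, and the receptors that deliver cargo to autophagosomes had the highest ratios. SQSTM1, the receptor p62 that also binds the NRF2 repressor KEAP1, had an intensity of 2953 with atovaquone, against 2009 with vehicle, a ratio of 1.47-fold and a log2 ratio of 0.56. NBR1, its relative that also binds ubiquitin and LC3, had 2535 with atovaquone, against 1864 with vehicle, a log2 ratio of 0.45. WIPI1, which binds phosphatidylinositol 3-phosphate on the growing membrane, had 725 with atovaquone, against 542 with vehicle, a log2 ratio of 0.42. These 3 genes and NPC2 were the members at least 1.2-fold higher, and GLA and UVRAG were those at least 1.2-fold lower.

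Counted over 41 measured members in K562, 0 were at least 1.5-fold higher and 0 lower, where 1.42% and 0.697% of all measured genes were. The 4 members higher and 2 lower by 1.2-fold stand beside 9.61% and 9.04% of all genes, so the number higher is what genes at large would give. The median was 0.05, against -0.0057 for all genes, and 28 of 41 ratios lay above 0, against 48.8% of all genes. In absolute size, 21 of the 41 ratios were below the SD of 1 probe set, and 6 were beyond 2 SD, or 0.24, namely GLA, NPC2, SQSTM1, NBR1, WIPI1 and UVRAG. Here too the share of all genes beyond these sizes was not counted. The 6 are the same members that passed 1.2-fold, a size above 2 SD. Of all genes, 9.61% reached 1.2-fold upward and 9.04% downward, so at least these shares lie beyond 2 SD. The counts do not set the members apart.

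**Figure D1:**
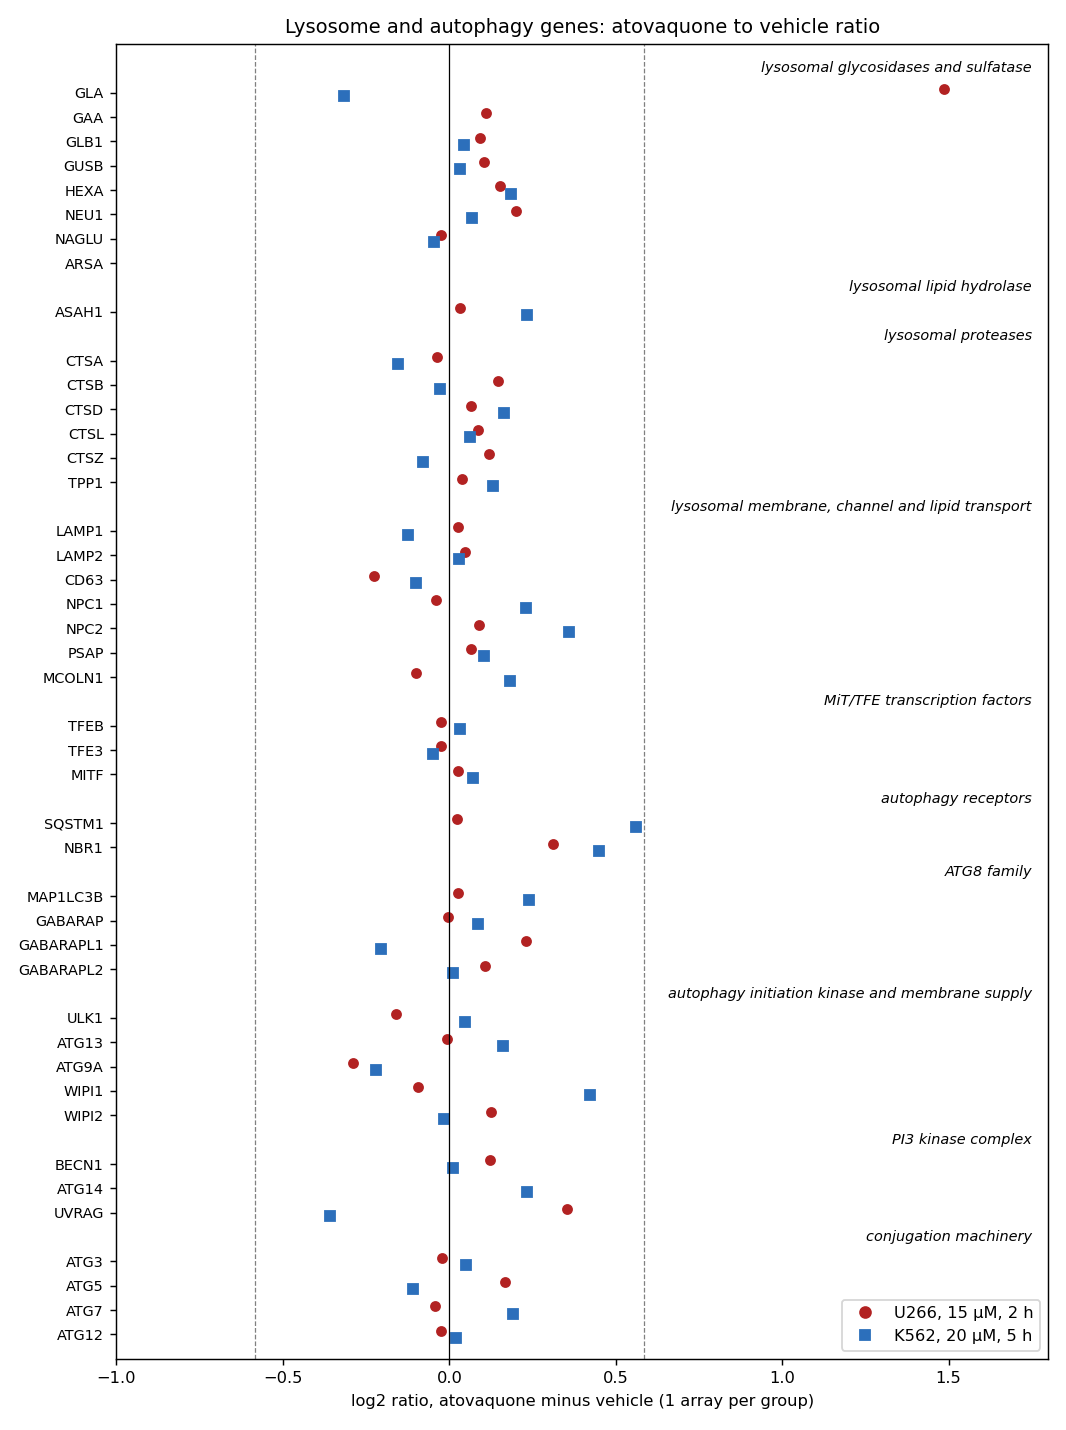
Log2 ratio of atovaquone to vehicle (horizontal axis) for each of the 43 genes (rows, grouped by role), with circles for U266 and squares for K562, each from 1 array per group, and dashed lines at 1.5-fold. GLA in U266, at 1.49, is the single point beyond a dashed line; genes below the floor on an array have no point.

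Taken by role, the glycosidases and the sulfatase of the lysosome had 6 of 7 measured members above 0 in U266 and a median of 0.11. NEU1, the sialidase, had 3485 with atovaquone, against 3053 with vehicle, a log2 ratio of 0.20, and its other 2 probe sets, which carry identical values, gave 0.19. HEXA, the alpha subunit of beta-hexosaminidase A, stood at 0.15, the glycogen-degrading glucosidase GAA at 0.11, the glucuronidase GUSB at 0.10 and the galactosidase GLB1 at 0.09. NAGLU, which trims heparan sulfate, stood at -0.02. Apart from GLA, the sizes in this role reached at most 1.15-fold. In K562 HEXA stood at 0.18, NEU1 at 0.07, GLB1 at 0.04, GUSB at 0.03 and NAGLU at -0.05. GAA was below the floor on both K562 arrays, with 258 with atovaquone and 226 with vehicle. ARSA, the arylsulfatase that acts on sulfatide, lay near the floor on all arrays, with 335 and 324 in U266 with atovaquone and vehicle and 259 and 318 in K562 with atovaquone and vehicle, so it gave no usable ratio.

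The lysosomal proteases and the ceramidase showed small ratios in both lines. In U266 the cysteine proteases CTSB, CTSZ and CTSL stood at 0.15, 0.12 and 0.08, the aspartic protease CTSD at 0.07, the tripeptidyl peptidase TPP1 at 0.04 and CTSA, which protects NEU1 and GLB1 in a complex, at -0.04. In K562 CTSD stood at 0.16 and TPP1 at 0.13, CTSL at 0.06, CTSB at -0.03, CTSZ at -0.08 and CTSA at -0.15. ASAH1, the acid ceramidase, stood at 0.03 in U266 and 0.23 in K562. Together the lysosomal hydrolases had a median of 0.10 in U266, with 12 of 14 above 0, and of 0.04 in K562, with 8 of 13 above 0.

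Membrane and lipid-handling proteins had a median of 0.02 in U266, with 4 of 7 above 0, and of 0.10 in K562, with 5 of 7 above 0. NPC2, the soluble carrier that hands cholesterol to NPC1, had 782 with atovaquone, against 612 with vehicle, in K562, a log2 ratio of 0.36. NPC1, the membrane exporter, stood at 0.23 in K562, MCOLN1, the calcium channel TRPML1, at 0.18, PSAP, the precursor of the saposins, at 0.10 and LAMP2 at 0.03, whereas LAMP1 stood at -0.12. CD63, a tetraspanin of late endosomes, stood at -0.23 in U266 and -0.10 in K562. The remaining 6 of this role in U266 lay between -0.10 (MCOLN1) and 0.09 (NPC2). The CLEAR-bearing members shown above gave no common direction in either line. MCOLN1 stood at -0.10 in U266 and 0.18 in K562, LAMP1 at 0.02 and -0.12, CTSA at -0.04 and -0.15, ATG3 at -0.02 and 0.05, and GAA at 0.11 in U266 alone.

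The MiT/TFE transcription factors barely differed at the RNA level. TFEB had 807 with atovaquone, against 827 with vehicle, in U266 and 903 with atovaquone, against 886 with vehicle, in K562, with log2 ratios of -0.02 and 0.03. TFE3 stood at -0.02 and -0.05 in U266 and K562, and MITF at 0.03 and 0.07. Arrays of RNA do not show the movement of these proteins into the nucleus, which is how their activity is mainly set.

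Autophagy genes had ratios under 1.5-fold in both lines, and of the 40 members measured in both lines 22 had the same sign, against 53.5% of all such genes. In U266 NBR1 had 2011 with atovaquone, against 1631 with vehicle, a log2 ratio of 0.31, whereas SQSTM1 had 6611 with atovaquone, against 6547 with vehicle, a ratio of 0.02. NBR1 was thus the 1 member at least 1.2-fold higher in both lines, and 0 were at least 1.2-fold lower in both, beside 0.759% and 0.596% of the 9222 genes measured in both lines. Of the ATG8 family, GABARAPL1 stood at 0.23 in U266 and -0.20 in K562, and MAP1LC3B, which encodes LC3B, at 0.03 and 0.24. GABARAP and GABARAPL2, the other ATG8 genes of the set, stood between -0.0034 and 0.11 in both lines.

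UVRAG, a subunit of the BECN1 lipid kinase complex that serves endosomes and autophagosome maturation, had the opposite sign in the lines. It gave 1608 with atovaquone, against 1267 with vehicle, in U266, a log2 ratio of 0.35, and 824 with atovaquone, against 1059 with vehicle, in K562, a ratio of -0.36. BECN1 itself, the scaffold of that complex, stood at 0.12 and 0.01 in U266 and K562. ATG14, which directs the complex to autophagosome formation, was dim, with 384 and 311 in U266 with atovaquone and vehicle, where the vehicle value was under the floor, and 460 and 392 in K562 with atovaquone and vehicle, a ratio of 0.23.

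Of the 5 genes of the early machinery, 4 lay below 0 in U266, ATG13 by so little that its sign changed with a lower floor. ATG9A, the scramblase of the vesicles that seed the membrane, had 520 with atovaquone, against 639 with vehicle, a log2 ratio of -0.29, and in K562 it had 1679 with atovaquone, against 1963 with vehicle, a ratio of -0.22. ULK1, the initiating kinase, stood at -0.16 in U266 and 0.05 in K562, and its partner ATG13 at -0.0061 and 0.16. WIPI1 stood at -0.09 in U266, and WIPI2, which recruits the conjugation enzymes, at 0.13 in U266 and -0.02 in K562. Of the conjugation machinery, ATG5 stood at 0.17 and -0.11 in U266 and K562, the E1-like enzyme ATG7 at -0.04 and 0.19, and the ubiquitin-like ATG12 at -0.02 and 0.02.

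**Figure D2:**
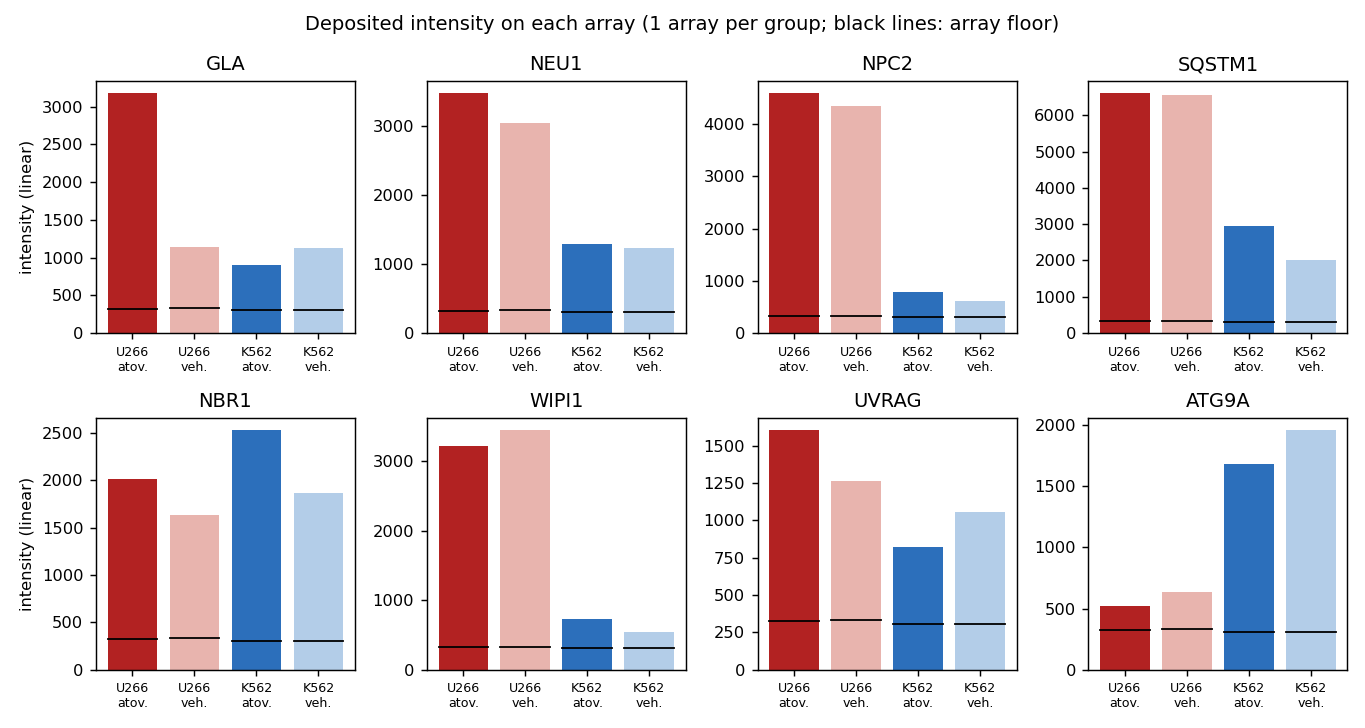
Deposited intensity (vertical axis, linear, starting at 0, own scale in each panel) of 8 genes on the 4 arrays, with 1 bar per array and black lines at the array floor. GLA is high on the treated U266 array at 3181 and between 902 and 1144 on the others, and SQSTM1 has 2953 with atovaquone and 2009 with vehicle in K562.

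Set against each other, lysosomal hydrolases and autophagy factors had medians of 0.10 and 0.02 in U266 and of 0.04 and 0.05 in K562. In U266, 12 of 14 hydrolases and 9 of 17 autophagy genes lay above 0, and in K562 8 of 13 and 13 of 18. The widest ratios in U266 ran to 1.49 among hydrolases and from -0.29 to 0.35 among autophagy genes, and in K562 from -0.32 to 0.23 and from -0.36 to 0.56. Without GLA the median of all measured members in U266, hydrolases and others together, stayed at 0.04. A median of the hydrolases without GLA was not computed.

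Further genes of the pathway, not members, were counted in the same way. Of 123 such genes with a value on the lists of lysosomal hydrolases, lysosomal membrane and sorting genes, V-ATPase subunits, autophagy machinery, autophagy receptors and lysosomal regulators of mTORC1 and AMPK, 111 were measured in U266 and 110 in K562, and 0 were at least 1.5-fold higher or lower in either line. At the shares of all genes given above, 1 or 2 such genes per line would be a background count, so 0 is near it. Their ratios ran between -0.39 and 0.47 in U266 and between -0.45 and 0.49 in K562. The further lysosomal hydrolases had medians of 0.02 in U266 and 0.07 in K562, over 20 measured genes in each line. Of these, 12 lay above 0 in U266 and 13 in K562, in U266 a smaller share than among the hydrolase members. V-ATPase subunits, which acidify the lysosome, had medians of -0.0032 in U266 and -0.04 in K562 over 16 genes. Further autophagy receptors had medians of -0.01 in U266 and 0.13 in K562 over 9 genes. The highest of these receptors in K562, named after its values were seen, was CALCOCO2 or NDP52, a receptor for bacteria and mitochondria. It had 1350 with atovaquone, against 989 with vehicle, a log2 ratio of 0.45. In K562 7 of the 9 receptors lay above 0, and TEX264 was the lowest at -0.30. Receptors did not lead the further genes, since SCARB2 and GALC on the other lists stood at 0.49 and 0.48 in K562. The 12 autophagy genes linked to CHOP and ATF4, of which 10 are members, had a K562 median of 0.07 with 10 above 0, and a U266 median of 0.02 with 7 above 0.

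**Figure D3:**
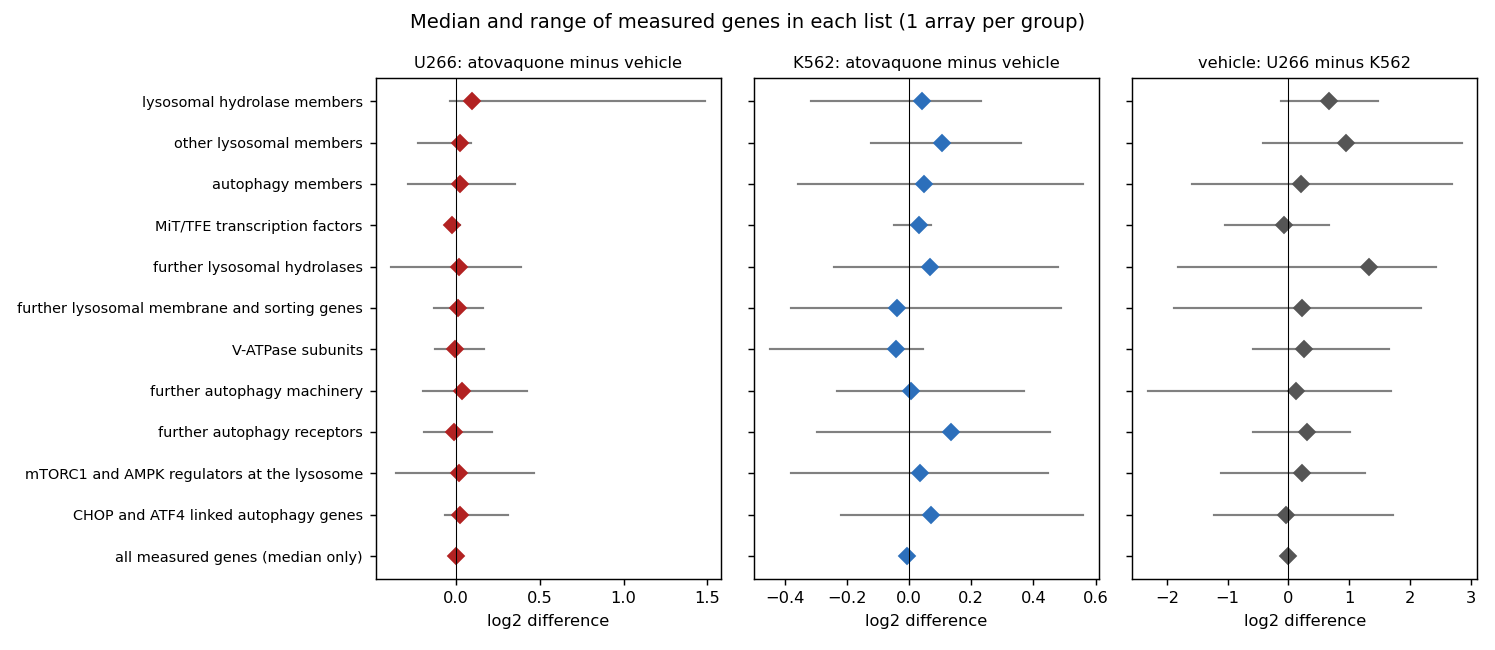
Median (diamond) and range (line) of the log2 difference over the measured genes of each list, for atovaquone minus vehicle in U266 and in K562 and for U266 minus K562 vehicle, with a separate horizontal scale in each panel and the median alone for all measured genes. With atovaquone the medians of the lists drawn lie between -0.04 and 0.13, and in the vehicle arrays the lysosomal hydrolases among the members and the further ones have medians of 0.67 and 1.32.

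With vehicle alone the lysosomal genes were mostly higher in U266 than in K562, and the autophagy genes were mixed. The vehicle arrays were compared as U266 minus K562, with vehicle for 2 h in U266 and 5 h in K562. Of 40 members measured on both, 9 were at least 2-fold higher in U266, against 7.97% of all genes, and 3 were at least 2-fold lower, against 6.97%. The difference was above 0 for 29 of 40, against 49.5% of all genes, with a median of 0.38 against -0.0071 for all genes. The 20 lysosomal members had a median of 0.79, with 18 above 0, 7 past 2-fold toward U266 and 0 past it toward K562. The 17 autophagy members had a median of 0.20, with 10 above 0 and 2 past that size on either side.

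NPC2 had the widest gap, with 4347 in U266 against 612 in K562, or 7.23-fold. CTSD followed among lysosomal genes with 5066 in U266 against 1855 in K562, and LAMP2 with 3664 in U266 against 1441 in K562. NEU1 had 3053 in U266 against 1236 in K562, and TPP1 had 4142 in U266 against 1684 in K562. These 4 were between 2.50-fold and 2.78-fold higher in U266. ASAH1 was 2.36-fold and CTSA 2.10-fold higher, and GAA, with 645 in U266 against a value under the floor in K562, was at least 2.15-fold higher. PSAP and MCOLN1 lay just under 2-fold, at 1.94-fold and 1.92-fold. GLA, NAGLU and GLB1 were close in the lines, with differences of 0.05, 0.10 and 0.11, and CTSL and CD63 were the 2 lysosomal members on the K562 side, at -0.12 and -0.42.

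On the autophagy side WIPI1 had 3450 in U266 against 542 in K562, or 6.47-fold, and SQSTM1 had 6547 in U266 against 2009 in K562, or 3.32-fold. ATG9A was lower in U266, with 639 in U266 against 1963 in K562, or 3.02-fold, and ATG5 likewise had 835 in U266 against 1987 in K562, or 2.34-fold. MITF, a relative of TFEB that is best known from melanocytes and osteoclasts, had 338 in U266, just above the floor, against 710 in K562. TFE3 was higher in U266, at 0.66, and TFEB was close, at -0.08. The 4 ATG8 genes lay between 0.06 and 0.50, and the remaining autophagy genes between -0.63 (WIPI2) and 0.52 (BECN1), with an upper bound of -0.22 for ATG14. The K562 vehicle array also enters the comparison of atovaquone in K562, where NPC2, WIPI1 and SQSTM1 stood at 0.36, 0.42 and 0.56.

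**Figure D4:**
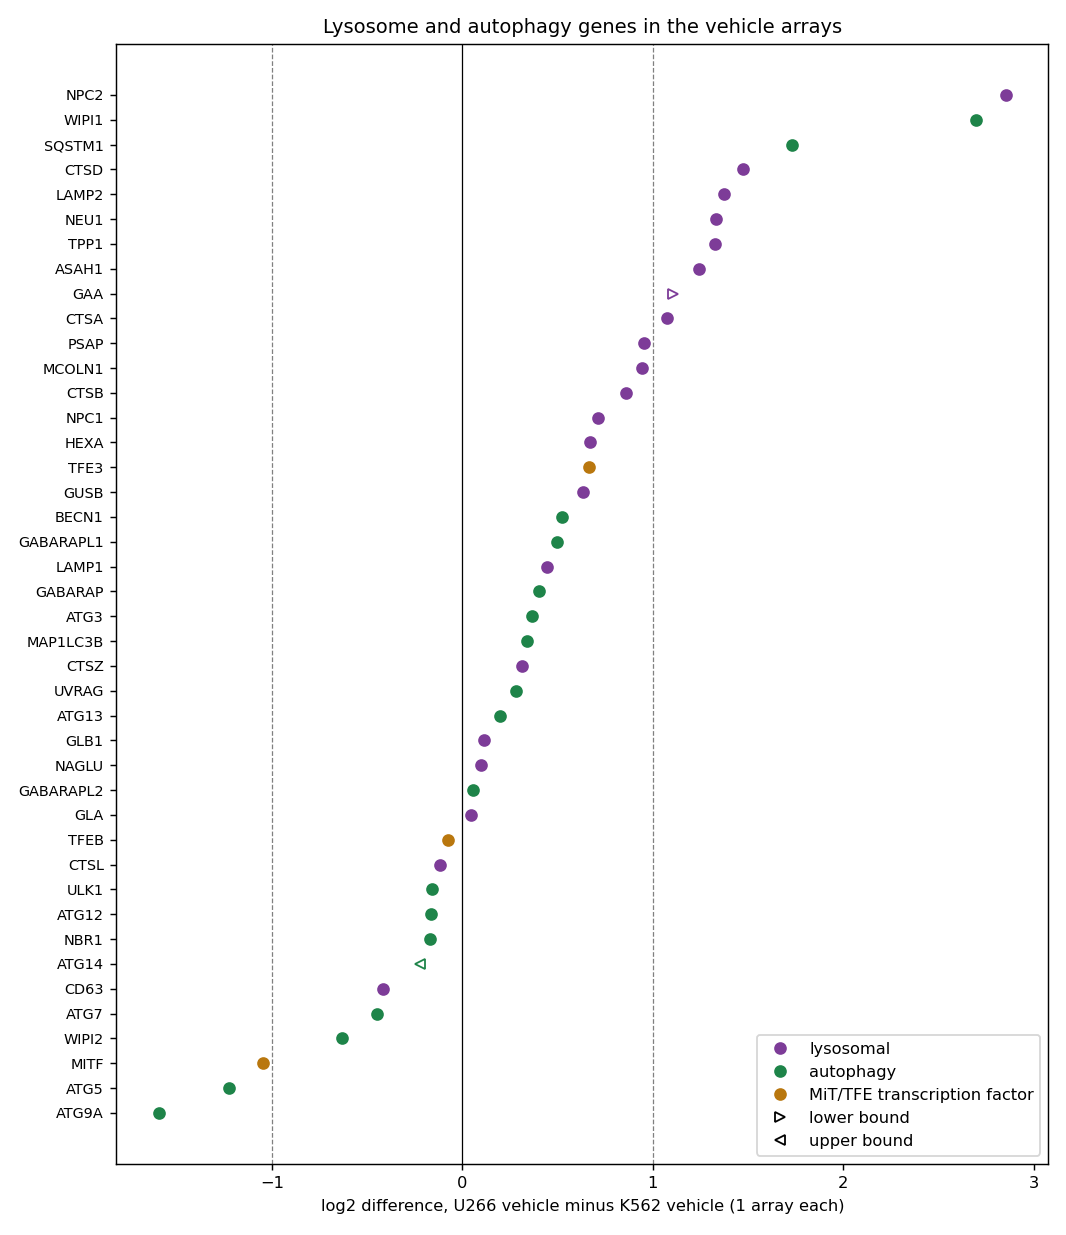
Log2 difference of U266 vehicle minus K562 vehicle (horizontal axis) for each gene with a value or a bound, in order of size, coloured by lysosomal, autophagy or MiT/TFE membership, with open triangles for bounds and dashed lines at 2-fold. NPC2, WIPI1 and SQSTM1 lie farthest to the right at 2.85, 2.69 and 1.73, and ATG9A farthest to the left at -1.59.

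The further lysosomal hydrolases, which are not members, also leaned to U266, with a median of 1.32 over 17 measured genes, 10 at least 2-fold higher and 1 lower. The cysteine endopeptidase LGMN had 3967 in U266 against 750 in K562, DNASE2, the acid DNase, had 2142 in U266 against 470 in K562, and the lipase LIPA was at least 5.30-fold higher. GALNS, a sulfatase for keratan sulfate, went the other way, with 485 in U266 against 1739 in K562. Further lysosomal membrane and sorting genes had a median of 0.22, with 11 of 16 above 0, 2 at least 2-fold higher and 1 lower, LAPTM5, a lysosomal protein of blood cells, at -1.88. V-ATPase subunits had a median of 0.26 with 2 of 16 at least 2-fold higher, and further autophagy machinery a median of 0.13 with 2 of 24 higher and 1 lower, VAMP8, a fusion SNARE, which had 928 in U266 against 4685 in K562. The counts of these last 3 lists are near the shares of all genes past 2-fold, 7.97% and 6.97%. The lysosomal regulators of mTORC1 and AMPK had a median of 0.23 over 23 measured genes, with 12 above 0. Of these, 2 were at least 2-fold higher and 1 lower, also near the shares of all genes. RRAGD, a Rag GTPase gene known as a TFEB and MITF target, had the largest difference of that list, as a bound. It had 3656 in U266 against 186 in K562, under the floor, and was at least 12.2-fold higher.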

How the data were processed

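The series matrix holds the authors' deposited array intensity per probe set on a linear scale. The software, background correction, normalisation and probe summary behind them are not stated in the labels, and array normalisation is thus unknown. RNA was isolated with Trizol and an RNeasy column and labelled with biotin by the usual Affymetrix procedure, per the labels. Array medians were 340 and 339 (U266 atovaquone and vehicle) and 319 and 314 (K562 atovaquone and vehicle), and 70 to 91 probe sets per array held the lowest value, 1. The number of arrays, 1 per group, limits the precision.

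Of 33252 probe sets, 21214 were annotated, 19460 with 1 symbol, and these were used. A gene with several took the brightest by mean log2. Intensities under each array's 40th percentile were raised to it, and log2 ratios were centred on the median of measured probe sets, which removed -0.0096 (U266), -0.0048 (K562) and -0.02 (vehicle arrays). No test fits 1 array per group, so fixed sizes were counted. Members and gene lists were chosen with earlier results of these data known. All 43 members were named, and of other pathway genes up to 4 per list by size. The code was tested on simulated data. Python 3.11.15, numpy 2.4.6 and pandas 2.3.3 were used. The alternatives were other floors, quantile normalisation, no centring, an added 50, probe set averages and shared probe sets.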

Additional observations from a re-analysis of the deposited data

Results flagged for a closer look

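GLA and UVRAG drew attention because their ratios with atovaquone had opposite signs in the lines, each by at least 1.2-fold. GLA had a log2 ratio of 1.49 in U266 and of -0.32 in K562. UVRAG had a log2 ratio of 0.35 in U266 and of -0.36 in K562. These differences between lines were not tested, since each group was 1 array and dose and time differed.

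A probe set that the annotation assigns to both MAP1LC3B and MAP1LC3B2 was left out of the gene values. In K562 it had 4573 with atovaquone, against 3585 with vehicle, a log2 ratio of 0.36, and in U266 its ratio was -0.0078. The probe set of MAP1LC3B alone stood at 0.24 in K562 and 0.03 in U266. The 7 probe sets that GUSB shares with its pseudogenes had ratios between -0.02 and 0.02 in U266 and between 0.0030 and 0.17 in K562.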

How the results depend on the processing

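Under 8 other settings the 648 recomputed member ratios all moved by less than the SD of 1 probe set, and GLA in U266, the single ratio past 1.5-fold, kept its sign. Several settings could hardly move a member ratio. Shared probe sets were used only for genes without their own, so no member changed, and averaging could change only NEU1, which has 3 probe sets. Other floors and no centring shifted measured ratios only through the centring value. The sign changed for 2 ratios close to 0 in U266, ATG13 (-0.0061) and GABARAP (-0.0034), which lay between 0.00011 and 0.0060 with no floor or the floor at the 20th percentile. The widest move was 0.04, of GLA in U266 when 50 was added to every intensity. The count of members at least 1.5-fold higher in U266 stayed at 1 and the other 3 counts with atovaquone at 0. Member medians lay between 0.03 and 0.06 in U266 and between 0.04 and 0.06 in K562. Between the vehicle arrays, 7 to 10 members were measured at least 2-fold higher in U266. With the floor at the 60th percentile, 1 member in place of 3 was measured at least 2-fold higher in K562, since ATG9A and MITF then lay under the floor in U266. ATG9A kept an upper bound of -1.51, past 2-fold, and MITF one of -0.04. With bounds counted, the numbers past 2-fold were 9 to 11 higher in U266 and 2 or 3 higher in K562. No paired analysis was possible because each group is 1 array. Values near the floor, such as those of ARSA, ATG14 and MITF, are the least secure, and any ratio here leaves out the spread between cultures.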
